A study of Homo sapiens with 12 samples.

Results

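The genes described here are 50 listed genes of the G2/M transition and mitosis: the kinase CDK1 and its cyclins, mitotic kinases, spindle checkpoint proteins, kinesin motors, kinetochore proteins, spindle and midbody proteins, condensin subunits and the transcription factors FOXM1 and MYBL2. The list names them by role, with no threshold on their values, but it was chosen with earlier results of these data known. Of the 50 genes, 49 were analysed among 15991 genes tested (16599 in the table of counts). SMC4 was not analysed here. The RNA, polyadenylated, came from 2 established lines of human lung cancer cells, A549 and H1650, with 3 libraries in each of 4 groups: untreated A549, A549 over-expressing SRSF2, untreated H1650, and H1650 over-expressing SRSF2. SRSF2 belongs to the SR proteins, a family of splicing factors with a domain rich in serine and arginine. The control libraries carry the letters NC in their titles, which are not explained, and are called untreated as labelled. How SRSF2 was introduced, for how long, and in pooled cells or in 1 clone was not given in the sources used here, and the RNA level of SRSF2 was not analysed here.

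Cells enter mitosis when CDK1, bound to cyclin B, is activated by CDC25 phosphatases. Aurora and Polo-like kinases then drive centrosome separation, spindle assembly and chromosome alignment, and the spindle checkpoint holds the anaphase-promoting complex in check until each kinetochore is attached. RNA of most of these genes accumulates late in the cell cycle, so their summed level is widely read as a mark of dividing cells. Their promoters are known for a cell cycle homology region (CHR), to which DREAM and MuvB complexes bind, and for CCAAT boxes, to which NF-Y binds, and FOXM1 and B-MYB (the product of MYBL2) act through the MuvB complex.

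Total counts ran from 23876899 to 32079027 per library. The biological coefficient of variation (the spread between replicates beyond counting error) was 0.0559 in H1650 with SRSF2 and 0.0298 to 0.0344 in the other 3 groups. The main test used 1 estimate of the spread per gene for all 12 libraries, although the groups differ in spread. The sources do not say that replicates came from separate cultures, and p-values therefore measure only the spread of these libraries, which may be technical. The epithelial markers KRT8 and KRT18 were above 1115 CPM (counts scaled to a common library total) in every library, whereas EPCAM gave 3.39 to 6.33 CPM in A549 and 294.5 to 354.1 CPM in H1650. The summed level of the 5 epithelial markers ran from 6991 to 7503 CPM in untreated and from 6395 to 6422 CPM in SRSF2 A549 libraries, and from 8191 to 8366 and from 7320 to 7849 CPM in the H1650 groups. Of 6 fibroblast markers 2 had counts (summed 12.25 to 14.99 and 8.63 to 10.3 CPM in untreated and SRSF2 A549, 21.4 to 22.7 and 19.1 to 20.6 CPM in H1650). Of 5 leukocyte markers CD14 alone had counts (5.51 to 6.58 and 3.56 to 4.08 CPM in A549, 0.354 to 0.438 and 0.218 to 0.597 CPM in H1650). The part of these markers in the results was not tested, and endothelial and erythroid markers were not analysed here.

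Promoters are shown for the 4 genes with the largest fall in both lines (CDK1, SPC25, MKI67 and KIF11, ranked by the smaller of the falls) and for ECT2 and PLK4, which were higher in H1650. Each is the 250 bases before the gene's start in RefSeq (GRCh38.p14), 5′ to 3′ on the gene's strand. Capitals mark matches to the CHR (TTTGAA), to the CCAAT box (CCAAT) and to an E2F site (TTGGCGC or TTCGCGC), each on either strand, so that TTCAAA and ATTGG count too. In MKI67 a CHR and a CCAAT match share 1 base.
CDK1 (chr10:60778081-60778330, plus strand): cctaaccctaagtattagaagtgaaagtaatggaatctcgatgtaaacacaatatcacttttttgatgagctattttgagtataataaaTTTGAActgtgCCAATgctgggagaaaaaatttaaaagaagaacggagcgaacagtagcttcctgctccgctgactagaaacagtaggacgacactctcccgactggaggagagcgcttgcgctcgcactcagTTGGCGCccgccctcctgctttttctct
SPC25 (chr2:168890431-168890680, minus strand): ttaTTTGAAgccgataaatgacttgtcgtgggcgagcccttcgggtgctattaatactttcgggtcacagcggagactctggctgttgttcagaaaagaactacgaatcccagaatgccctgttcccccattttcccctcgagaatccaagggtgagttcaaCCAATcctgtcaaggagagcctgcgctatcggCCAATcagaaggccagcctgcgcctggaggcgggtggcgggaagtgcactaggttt
MKI67 (chr10:128126424-128126673, minus strand): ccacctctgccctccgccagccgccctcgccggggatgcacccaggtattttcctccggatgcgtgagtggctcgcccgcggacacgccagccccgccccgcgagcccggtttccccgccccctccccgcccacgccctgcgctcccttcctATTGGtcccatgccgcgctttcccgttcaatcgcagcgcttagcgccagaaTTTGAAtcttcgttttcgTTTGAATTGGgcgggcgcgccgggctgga
KIF11 (chr10:92592880-92593129, plus strand): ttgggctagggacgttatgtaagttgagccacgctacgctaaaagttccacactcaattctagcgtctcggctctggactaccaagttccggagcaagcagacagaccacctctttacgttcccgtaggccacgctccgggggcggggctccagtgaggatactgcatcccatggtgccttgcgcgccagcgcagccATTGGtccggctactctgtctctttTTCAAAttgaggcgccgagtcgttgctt
ECT2 (chr3:172750476-172750725, plus strand): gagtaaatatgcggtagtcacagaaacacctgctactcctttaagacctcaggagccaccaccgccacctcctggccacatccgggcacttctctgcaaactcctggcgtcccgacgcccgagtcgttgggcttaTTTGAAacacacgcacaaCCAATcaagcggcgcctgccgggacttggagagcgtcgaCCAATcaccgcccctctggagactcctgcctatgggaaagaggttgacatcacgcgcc
PLK4 (chr4:127880643-127880892, plus strand): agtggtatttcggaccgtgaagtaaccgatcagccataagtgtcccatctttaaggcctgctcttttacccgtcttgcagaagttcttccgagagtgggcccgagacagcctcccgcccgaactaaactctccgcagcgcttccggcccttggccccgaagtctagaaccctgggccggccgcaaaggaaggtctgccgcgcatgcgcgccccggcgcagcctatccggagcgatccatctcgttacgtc
The PLK4 stretch holds no match, and its CHR match lies 39 to 44 bases after the start. Other matches that span the start or lie after it are not marked above either. With bases counted from the start, SPC25 has a CHR at -3 to 3 and CDK1 an E2F match at 21 to 27. ECT2 has a CHR at 35 to 40, a CCAAT box at -2 to 3 and an E2F match at -5 to 2. Over the window from 250 bases before to 50 bases after the start, which was found for 44 of the 50 listed genes, 31 genes (70.5%) held a CHR. The share was 9.98% over 11239 tested genes with a window and 15.4% over all 27305 windows. A CCAAT box was found in 30 of the 44 (68.2%, against 35.7% of tested genes), at least 2 CCAAT boxes in 18 (40.9%, against 13.1%), and both CHR and CCAAT in 23 (52.3%, against 4.16%). An E2F match was found in 7 (15.9%, against 8.18%). These are matches of letters and do not show that a factor bound.

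SRSF2 over-expression was accompanied by lower RNA of most of these genes in both lines, and by larger falls in H1650. In A549, 37 of 49 genes fell, 0 rose and 12 were not called (edgeR's quasi-likelihood test, Benjamini-Hochberg adjusted p under 0.05 over all genes tested). Of all genes tested in A549, 32.5% were called, 16% lower and 16.5% higher. The median log2 fold change of the 49 genes was -0.21, against 0.00 over all genes tested, and single genes lay between -0.43 and 0.01. In H1650, 38 fell, 3 rose (ECT2, PLK4 and CKAP2) and 8 were not called, where 62.3% of all genes tested were called, 31.3% lower and 31% higher. The median was -0.40, against 0 over all genes tested, and the range was -1.26 to 0.40. The size of the changes differed more than their number: 18 of the genes fell by at least 0.5 on the log2 scale in H1650 (13.5% of all genes tested did) and 0 did in A549 (2.3%), where 0 rose by as much (5.09%). In these bulk libraries fewer cells in G2 or mitosis and less RNA per cell cannot be told apart.

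**Figure D1:**
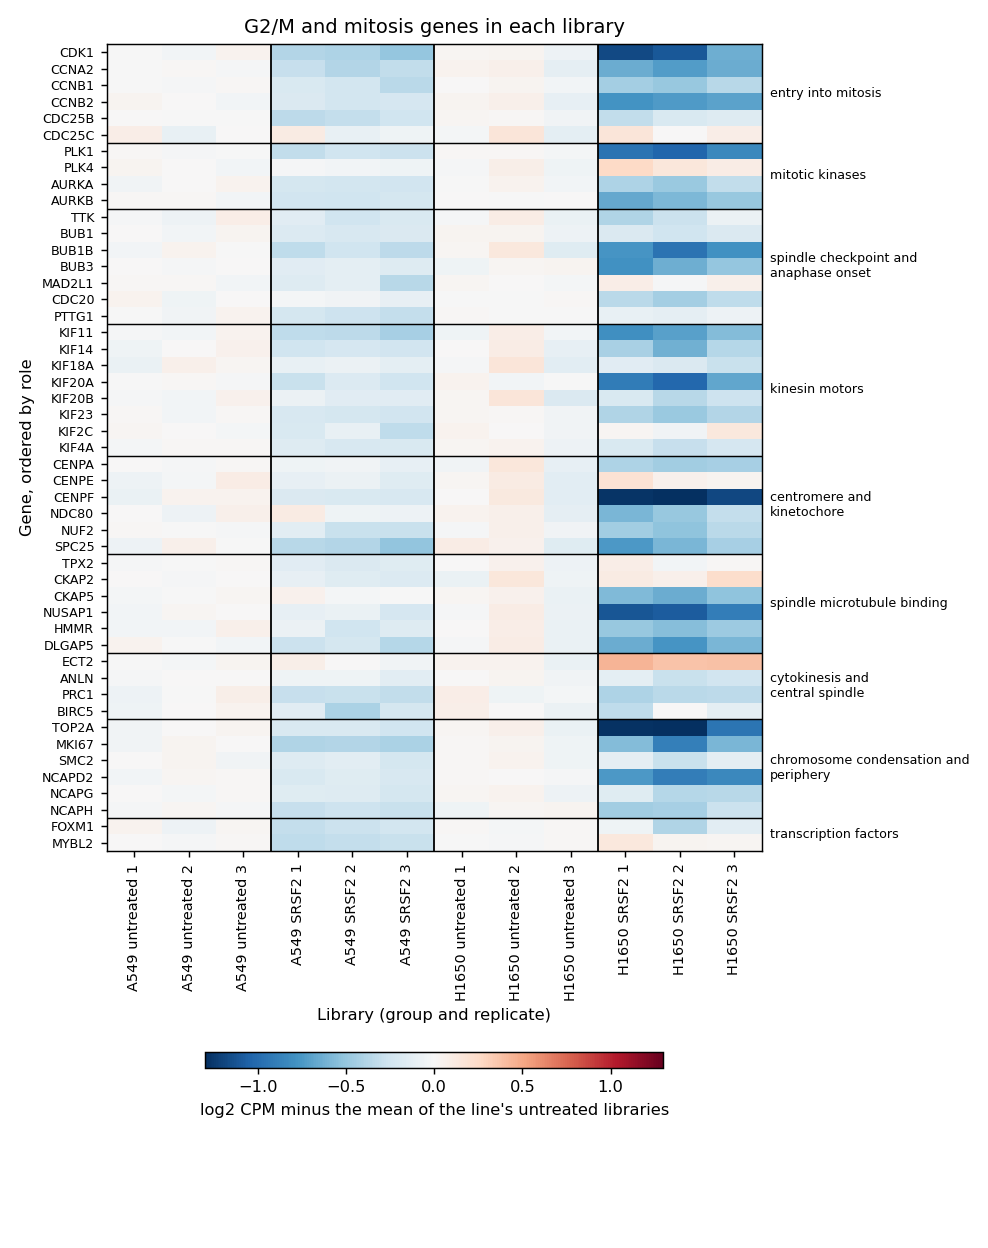
Log2 CPM of 49 G2/M and mitosis genes (rows, ordered by role) in each of 12 libraries (columns), as the difference from the mean of the untreated libraries of the same line. Colours saturate at the ends of the scale, which CENPF and TOP2A reach. Blue cells fill most rows in the SRSF2 libraries of both lines and are darker in H1650, where the ECT2 row is orange.

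The falls were present in each library. The median deviation of the 49 genes from the untreated mean of their line was -0.19, -0.21 and -0.23 log2 in A549 SRSF2 replicates 1 to 3, and -0.40, -0.45 and -0.34 in the H1650 SRSF2 replicates. Untreated libraries deviated by -0.01 to 0.01 in A549 and by -0.06 to 0.05 in H1650. Untreated H1650 replicate 3 was the lowest of its group for 39 of the 49 genes, and H1650 SRSF2 replicate 2 was the lowest of its group for 32. In A549 the largest such counts were 21 (untreated replicate 2) and 29 (SRSF2 replicate 3). Ranks within a group were not counted over all genes tested. The genes together took 0.808% ± 0.00857 of all counts in untreated and 0.693% ± 0.00931 in SRSF2 A549 libraries (SD, n = 3). In H1650 the shares were 0.659% ± 0.0241 and 0.484% ± 0.0195 (SD, n = 3). In A549 all 3 SRSF2 libraries lay below all 3 untreated ones for 42 of the 49 genes, and in H1650 for 38, where 23% and 32.6% of all genes tested did.

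**Figure D2:**
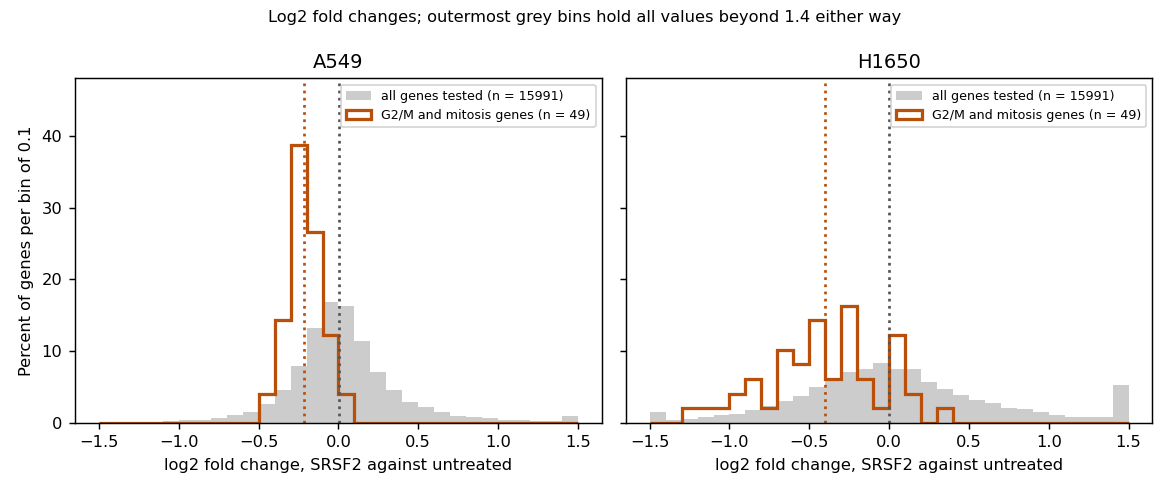
Distribution of log2 fold changes (x axis, bins of 0.1) of the 49 genes (orange outline) and of all 15991 genes tested (grey), as percent of genes (y axis), in A549 (left) and H1650 (right). Dotted lines mark the medians, -0.21 and -0.40 for the 49 genes against 0.00 and 0 for all genes. The outermost grey bins gather all values beyond the axis.

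Genes that start mitosis fell in both lines. Of CDK1, its cyclins and the CDC25 phosphatases, 5 of 6 fell in A549 and the same number in H1650. Beside this and the later counts by role stand the shares of all genes tested. These were 16% lower and 16.5% higher in A549, and 31.3% lower and 31% higher in H1650. CDK1, the kinase of mitotic entry (ENSG00000170312, chr10:60778331-60794852, GRCh38), gave 144, 140.4 and 149 CPM in untreated A549 replicates 1 to 3 and 111, 109 and 102 CPM with SRSF2. In H1650 it gave 65.3, 65.9 and 61.4 CPM untreated and 28.4, 29.8 and 41.3 CPM with SRSF2. The groups did not overlap in either line, and H1650 SRSF2 replicate 3 lay above the other 2 SRSF2 libraries. CDK1 fell by 0.43 on the log2 scale (SE 0.10, edgeR adjusted p = 0.00929) in A549, the largest fall of the 49 genes there, and by 0.94 (SE 0.12, edgeR adjusted p = 4.23e-05) in H1650. CCNA2, which encodes cyclin A2, gave 96.0, 97.0 and 95.2 CPM in untreated and 78.2, 74.0 and 77.1 CPM in SRSF2 A549 libraries. In H1650 CCNA2 gave 80.2, 81.4 and 71.9 CPM against 49.8, 46.9 and 49.6 CPM. These groups were also apart, with falls of 0.33 (SE 0.05, edgeR adjusted p = 2.74e-07) and 0.67 (SE 0.05, edgeR adjusted p = 7.92e-16). The B-type cyclins CCNB1 and CCNB2 fell by 0.26 and 0.21 in A549 and by 0.43 and 0.74 in H1650. CDC25B, a phosphatase that activates CDK1, fell by 0.30 in A549 and by 0.23 in H1650, and its relative CDC25C was not called in either line (-0.02 and 0.08).

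Among the mitotic kinases PLK1, AURKA and AURKB fell in both lines, while PLK4 rose in H1650. PLK1, which acts on centrosomes, kinetochores and the cleavage furrow, gave 204, 200.0 and 201 CPM in untreated A549 and 162, 168 and 166 CPM with SRSF2. In H1650 PLK1 stood at 219, 218 and 213 CPM untreated and at 111, 106 and 121 CPM with SRSF2. The SRSF2 libraries lay below all untreated ones in each line. The log2 changes were -0.28 (SE 0.04, edgeR adjusted p = 2.77e-07) and -0.94 (SE 0.04, edgeR adjusted p = 4.54e-23). PLK4, the kinase that starts centriole duplication, gave 53.6, 57.3 and 52.2 CPM in untreated H1650 and 64.8, 60.1 and 58.1 CPM with SRSF2. Those groups did not overlap, though by a narrow margin, and the rise was 0.17 (SE 0.05, edgeR adjusted p = 0.00412). With plain library totals the value was 0.08 and not called (edgeR adjusted p = 0.141). In A549 the PLK4 libraries overlapped, at 45.9, 45.0 and 43.6 CPM untreated and 44.3, 43.6 and 43.1 CPM with SRSF2 (log2 -0.04, edgeR adjusted p = 0.629). AURKA and AURKB, kinases of the spindle poles and of the inner centromere, fell by 0.24 and 0.25 in A549 and by 0.40 and 0.58 in H1650.

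Of 7 spindle checkpoint and anaphase genes, 6 fell in A549 and 5 in H1650. BUB1B, which encodes the checkpoint protein BUBR1, fell most of these in both lines, by 0.31 in A549 and 0.84 in H1650, and BUB3, its binding partner, fell by 0.15 and 0.64. TTK and BUB1, the checkpoint kinases, fell by 0.20 and 0.19 in A549 and by 0.24 and 0.21 in H1650. In H1650 the TTK groups overlapped, since SRSF2 replicate 3 (19.2 CPM) lay above untreated replicate 3 (19.1 CPM). The TTK call in A549 was lost without A549 SRSF2 replicate 2 (edgeR adjusted p = 0.067) or untreated A549 replicate 3 (0.080). CDC20, the activator of the anaphase-promoting complex that the checkpoint restrains, was not called in A549 (-0.06) and fell by 0.37 in H1650. MAD2L1 and PTTG1, which encode the checkpoint protein MAD2 and securin, fell in A549 by 0.21 and 0.27 and were not called in H1650 (0.05 and -0.09), where PTTG1 was called lower with upper-quartile scaling (edgeR adjusted p = 0.0393) and with plain library totals (0.00101).

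The kinesins fell widely, 6 of 8 in A549 and 7 of 8 in H1650. KIF11, the motor that pushes the spindle poles apart (ENSG00000138160, chr10:92593286-92655395, GRCh38), gave 182, 179 and 189 CPM in untreated A549 and 146, 144 and 136 CPM with SRSF2. In H1650 KIF11 gave 95.5, 105 and 96.9 CPM untreated and 57.0, 60.8 and 66.9 CPM with SRSF2. Both pairs of groups were apart, and KIF11 fell by 0.37 (SE 0.04, edgeR adjusted p = 1.76e-08) and 0.68 (SE 0.05, edgeR adjusted p = 1.03e-15). KIF20A, a kinesin of the central spindle needed for cytokinesis, gave 87.1, 88.2 and 86.2 CPM in untreated A549 and 71.2, 76.8 and 72.8 CPM with SRSF2. It gave 85.1, 80.4 and 82.5 CPM in untreated H1650 and 44.0, 40.7 and 51.9 CPM with SRSF2. The untreated levels of the lines were not called different (-0.08, edgeR adjusted p = 0.183). KIF20A fell by 0.24 (SE 0.05, edgeR adjusted p = 6.00e-04) in A549 and by 0.86 (SE 0.06, edgeR adjusted p = 1.42e-15) in H1650. KIF14 and KIF23, also motors of the midbody, fell by 0.24 and 0.23 in A549 and by 0.47 and 0.42 in H1650. KIF4A, a chromosome-bound motor, fell by 0.19 and 0.24. KIF18A and KIF20B fell in H1650 (-0.22 and -0.28) and were not called in A549 (-0.10 and -0.13), and the difference between the lines was not called for either. KIF20B was called in A549 with RLE scaling, with the A549 libraries alone and without untreated H1650 replicate 3 (edgeR adjusted p = 0.049, 0.00981 and 0.040). KIF2C, a kinesin that takes microtubule ends apart, fell in A549 (-0.21) and was not called in H1650 (0.04), and its A549 call was lost without SRSF2 replicate 3 (edgeR adjusted p = 0.081). KIF18A lost its H1650 call without untreated replicate 2 (edgeR adjusted p = 0.068).

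Kinetochore genes held both the largest fall of the whole set and genes with no call. CENPF, a large protein of the outer kinetochore, gave 317, 349 and 347 CPM in untreated A549 and 296, 294 and 291 CPM with SRSF2. In H1650 CENPF gave 215, 233 and 195 CPM untreated and 88.6, 85.7 and 93.8 CPM with SRSF2. The SRSF2 libraries of H1650 lay far below the untreated ones, and those of A549 lay closer to theirs without overlap. The falls were 0.20 (SE 0.05, edgeR adjusted p = 0.00154) in A549 and 1.26 (SE 0.05, edgeR adjusted p = 8.00e-19) in H1650, where the level dropped by 58.3%. SPC25, a subunit of the NDC80 complex that holds microtubules (ENSG00000152253, chr2:168834132-168913371, GRCh38), gave 39.2, 42.8 and 40.8 CPM in untreated A549 and 31.9, 31.4 and 28.6 CPM with SRSF2. In H1650 it gave 24.5, 23.7 and 20.5 CPM against 13.5, 15.1 and 16.9 CPM. SPC25 was lower in every SRSF2 library of both lines, by 0.42 (SE 0.07, edgeR adjusted p = 4.87e-06) and 0.59 (SE 0.08, edgeR adjusted p = 1.51e-08). NDC80, which names that complex, gave 24.9, 23.7 and 26.0 CPM in untreated and 26.9, 24.0 and 23.8 CPM in SRSF2 A549 libraries. In H1650 NDC80 gave 47.0, 47.9 and 42.2 CPM against 30.2, 32.5 and 36.8 CPM. The A549 groups overlapped, and NDC80 was not called there (-0.00, edgeR adjusted p = 0.989) and fell by 0.46 in H1650 (SE 0.07, edgeR adjusted p = 7.23e-08). NUF2, the partner of NDC80, fell in both lines (-0.24 and -0.44). CENPA, the histone H3 variant of centromeres, fell in H1650 (-0.43) and was not called in A549 (-0.07). CENPE, a kinetochore motor, was called in neither line (-0.12 and 0.09). It was called lower in A549 with the A549 libraries alone (edgeR adjusted p = 0.0304) and higher in H1650 without untreated H1650 replicate 2 (0.0401).

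Of 6 genes for proteins that bind spindle microtubules, 5 fell in A549, and 4 fell and 1 rose in H1650. NUSAP1, which bundles microtubules near chromosomes, gave 109, 114 and 112 CPM in untreated A549 and 103, 105 and 95.7 CPM with SRSF2. In H1650 NUSAP1 gave 133, 143 and 127 CPM untreated and 62.0, 63.3 and 72.0 CPM with SRSF2. The H1650 groups were far apart and NUSAP1 fell by 1.03 (SE 0.05, edgeR adjusted p = 7.45e-20). In A549 it fell by 0.14 (SE 0.05, edgeR adjusted p = 0.0294), a call lost without SRSF2 replicate 3 (adjusted p = 0.175), untreated replicate 2 (0.107) or untreated replicate 3 (0.081). CKAP5, a microtubule polymerase also called ch-TOG, gave 310.2, 316 and 323 CPM in untreated A549 and 328, 311 and 314 CPM with SRSF2. In H1650 CKAP5 gave 258, 264 and 238 CPM against 169.8, 161 and 176 CPM. CKAP5 was not called in A549 (0.01, edgeR adjusted p = 0.928), where its sign turned with RLE scaling, and fell by 0.58 in H1650 (SE 0.04, edgeR adjusted p = 1.77e-16). HMMR, which binds hyaluronan and spindle microtubules, gave 45.7, 45.7 and 49.0 CPM in untreated A549 and 44.4, 39.1 and 41.6 CPM with SRSF2. Its H1650 levels were 16.3, 17.4 and 15.3 CPM untreated and 11.6, 11.1 and 11.7 CPM with SRSF2. HMMR fell by 0.17 (SE 0.06, edgeR adjusted p = 0.025) and 0.51 (SE 0.08, edgeR adjusted p = 1.67e-07), and the A549 call was lost without SRSF2 replicate 2 (adjusted p = 0.185), SRSF2 replicate 3 (0.057) or untreated replicate 3 (0.145). DLGAP5, a spindle assembly protein, fell by 0.29 and 0.67, and TPX2, an activator of Aurora A, fell in A549 (-0.16) with no call in H1650 (0.02).

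CKAP2, a spindle-associated protein, was called in opposite directions in the 2 lines. It gave 93.3, 92.0 and 92.9 CPM in untreated A549 and 86.0, 83.3 and 81.9 CPM with SRSF2, with no overlap (log2 -0.15, SE 0.05, edgeR adjusted p = 0.0189). In H1650 CKAP2 gave 51.3, 60.1 and 52.4 CPM untreated and 58.5, 57.1 and 64.0 CPM with SRSF2 (0.13, SE 0.05, edgeR adjusted p = 0.0239). The H1650 groups overlapped, since untreated replicate 2 lay above 2 SRSF2 libraries. The H1650 call was lost with plain library totals (edgeR adjusted p = 0.389) and without SRSF2 replicate 3 (0.217), untreated replicate 1 (0.190) or untreated replicate 3 (0.128). The A549 call of CKAP2 was lost without any one of untreated replicates 1 and 3 and SRSF2 replicates 2 and 3 (edgeR adjusted p = 0.052 to 0.072).

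Of 4 cytokinesis genes, 2 fell in A549, where 16% of all genes tested did. In H1650 2 fell and 1 rose, which for 4 genes is near the shares of all genes tested (31.3% lower and 31% higher). ECT2, the exchange factor that activates RhoA at the cleavage furrow (ENSG00000114346, chr3:172750682-172821474, GRCh38), gave 109, 109 and 99.7 CPM in untreated H1650 and 144, 137 and 137 CPM with SRSF2. Every SRSF2 library lay above every untreated one, and ECT2 rose by 0.40 (SE 0.04, edgeR adjusted p = 2.91e-11), or 1.32-fold. In A549 its libraries overlapped, at 328, 325 and 337 CPM untreated and 347, 330.4 and 319.6 CPM with SRSF2 (0.01, edgeR adjusted p = 0.873), and its sign turned with RLE scaling. ANLN, which encodes the actin-binding scaffold anillin, gave 220.2, 224 and 223 CPM in untreated A549 and 214, 213 and 203 CPM with SRSF2. In H1650 it gave 845, 862 and 813 CPM against 769, 686 and 709 CPM. ANLN was lower in each SRSF2 library of both lines, but was called in H1650 (-0.22, SE 0.04, edgeR adjusted p = 2.05e-06) and not in A549 (-0.08, edgeR adjusted p = 0.109). RLE scaling and a fit of the A549 libraries alone did call it in A549 (edgeR adjusted p = 0.0396 in both). PRC1, which crosslinks microtubules of the central spindle, fell by 0.31 and 0.37. BIRC5, which encodes survivin of the chromosomal passenger complex, fell by 0.26 in A549 and was not called in H1650 (-0.14), with no call for the difference. The A549 call of BIRC5 was lost without SRSF2 replicate 2 (edgeR adjusted p = 0.170), untreated replicate 2 (0.056) or untreated replicate 3 (0.080).

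Of genes for chromosome condensation and the chromosome surface, 5 of 6 fell in A549 and 6 of 6 in H1650. TOP2A, the topoisomerase that untangles DNA before chromosomes part, gave 254, 261 and 235 CPM in untreated H1650 and 103, 99.4 and 129 CPM with SRSF2. Its H1650 level dropped by 55.7% (log2 -1.18, SE 0.09, edgeR adjusted p = 6.33e-07). In A549 TOP2A gave 757, 786 and 804 CPM untreated and 682, 683 and 653 CPM with SRSF2, with no overlap. It was not called there (-0.22, SE 0.08, edgeR adjusted p = 0.0703), although DESeq2, limma-voom, RLE scaling, a fit of the A549 libraries alone and fits without H1650 SRSF2 replicate 2 or 3 did call it. MKI67, which encodes the Ki-67 protein that coats mitotic chromosomes (ENSG00000148773, chr10:128096659-128126385, GRCh38), gave 754, 797 and 777 CPM in untreated A549 and 589.6, 595 and 585 CPM with SRSF2. In H1650 MKI67 gave 483, 488 and 459 CPM against 323, 257 and 315 CPM. The groups lay well apart in both lines, with falls of 0.39 (SE 0.06, edgeR adjusted p = 1.85e-04) and 0.68 (SE 0.06, edgeR adjusted p = 2.10e-07). NCAPD2, a condensin I subunit, gave 294, 307 and 306 CPM in untreated A549 and 263, 270.0 and 261 CPM with SRSF2. In H1650 NCAPD2 gave 209.8, 209 and 206 CPM against 124, 112 and 116 CPM. NCAPD2 fell by 0.19 (SE 0.04, edgeR adjusted p = 7.85e-05) and 0.83 (SE 0.04, edgeR adjusted p = 6.97e-22). Of the other condensin genes, NCAPG and NCAPH fell by 0.30 and 0.38 in H1650 and by 0.18 and 0.29 in A549. SMC2, an ATPase that both condensins share, fell by 0.17 in H1650 and by 0.18 in A549.

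The transcription factors FOXM1 and MYBL2 both fell in A549. MYBL2 gave 178, 176 and 179 CPM in untreated A549 and 141, 143 and 145 CPM with SRSF2, a fall of 0.31 (SE 0.04, edgeR adjusted p = 5.89e-09). In H1650 MYBL2 gave 611, 610.1 and 623 CPM untreated and 676, 631 and 627 CPM with SRSF2. All 3 SRSF2 libraries of H1650 lay above the untreated ones, but the change was not called (0.07, SE 0.03, edgeR adjusted p = 0.0793). It was called there with limma-voom and without SRSF2 replicate 3. FOXM1 fell by 0.28 in A549 and by 0.19 in H1650 (edgeR adjusted p = 0.00397), where SRSF2 libraries gave 88.1, 69.9 and 83.3 CPM against 92.4, 89.7 and 92.3 CPM untreated. Without SRSF2 replicate 2, the lowest, FOXM1 was not called in H1650 (edgeR adjusted p = 0.089).

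**Figure D3:**
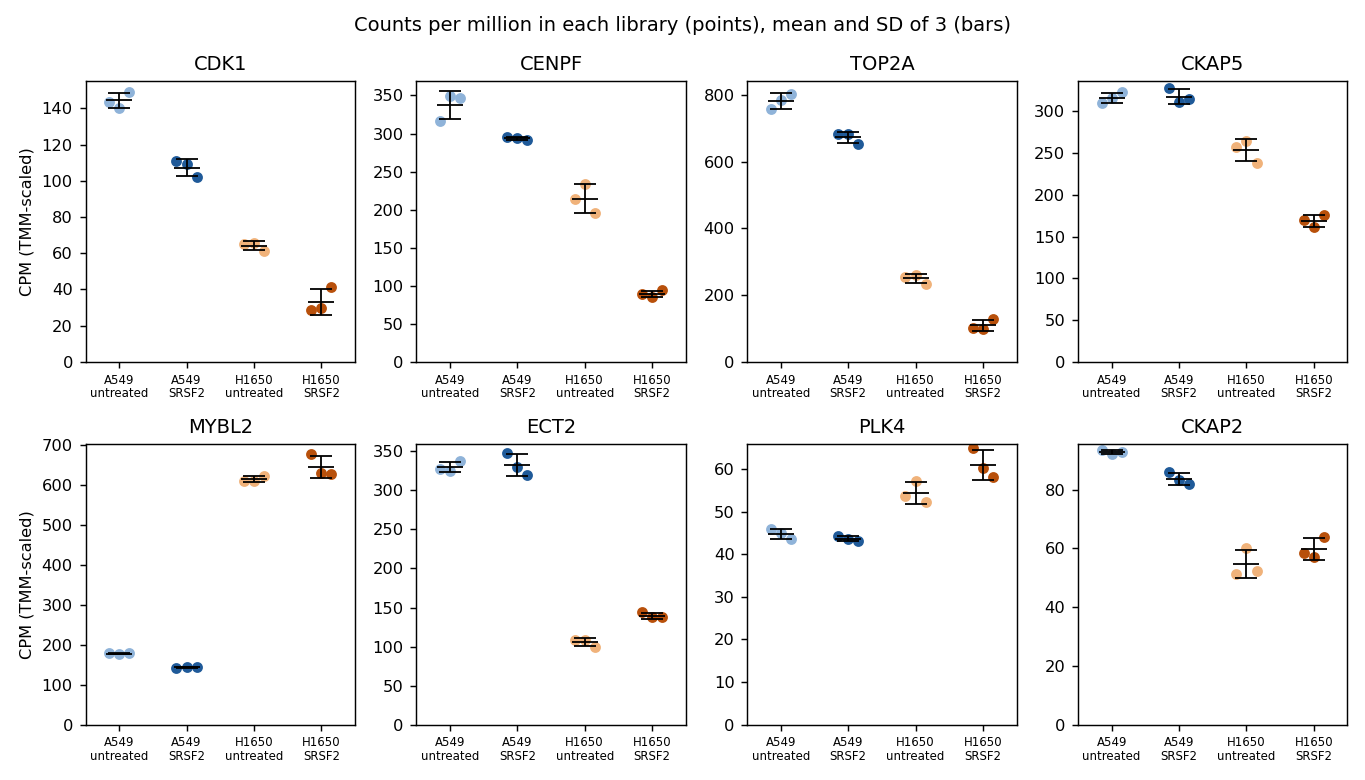
CPM in every library (points) with the mean and SD of 3 libraries (bars) of CDK1, CENPF, TOP2A, CKAP5, MYBL2, ECT2, PLK4 and CKAP2 in the 4 groups, each panel with its own axis. The SRSF2 points of CDK1 lie below the untreated points in both lines, and those of ECT2 lie above them in H1650.

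Some of these genes overlap a neighbour, and how the counting treated shared reads and strand was not given in the sources used here. In GENCODE 29, 19 of the 49 genes share exonic bases with another gene, and 3 share over 20%: NUSAP1 (62.2%, with AC087721.2 on the same strand), PRC1 (57.6%, with AC068831.7 on the same strand) and NCAPG (33.1%, with LCORL on the other strand). Their values are uncertain in that respect.

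By call, 30 genes were lower in both lines (20 of them with a called difference in size and 10 without), 8 were lower in H1650 and not called in A549, and 6 were lower in A549 and not called in H1650. Another 2 (CDC25C and CENPE) were called in neither, 2 (ECT2 and PLK4) rose in H1650 with no call in A549, and CKAP2 was called in opposite directions. Such joint calls were not counted over all genes tested, so these counts have no share to stand beside. The difference itself (A549 minus H1650) was tested as an interaction in the same edgeR fit, and 35 of 49 genes were called, 26 above 0 and 9 below, where 47.6% of all genes tested were called, 24.1% above 0 and 23.6% below. In all 26 above 0 the larger change was the fall in H1650. Of the 9 below 0, 6 (MAD2L1, PTTG1, KIF2C, CENPE, TPX2 and MYBL2) lay further from 0 in A549, and the other 3 were ECT2, PLK4 and CKAP2. The 6 with the smallest adjusted p were CENPF (1.06, SE 0.07), NUSAP1 (0.89, SE 0.07), NCAPD2 (0.64, SE 0.05), PLK1 (0.66, SE 0.06), CKAP5 (0.59, SE 0.06) and MYBL2 (-0.38, SE 0.05), with edgeR adjusted p from 2.60e-13 to 2.96e-08. SPC25 was not called (0.17, SE 0.10, edgeR adjusted p = 0.185).

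**Figure D4:**
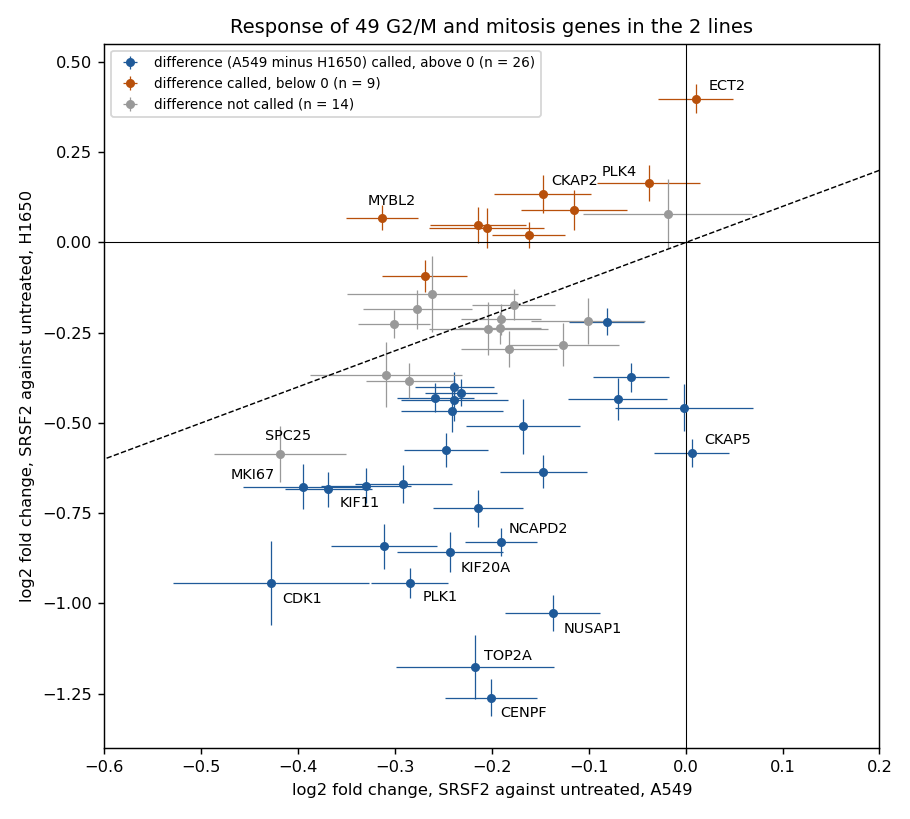
Log2 fold change, SRSF2 against untreated, of 49 genes in A549 (x axis) and H1650 (y axis), with bars of 1 SE either way and a dashed line of equal change. Blue points (n = 26) lie below the line and orange points (n = 9) above it with the difference called, and grey points (n = 14) had no call. CENPF, TOP2A and NUSAP1 lie lowest in H1650.

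Promoter matches were set beside the changes as a description. In H1650 the 30 genes with a CCAAT box had a median log2 fold change of -0.54 and the 13 without one -0.17. The range with a CCAAT box ran from -1.26 to 0.40, so that it spanned the range without (-0.84 to 0.17). For the CHR the medians were -0.46 (n = 30) and -0.21 (n = 13). In A549 the medians were -0.22 and -0.18 with and without a CCAAT box, and -0.20 and -0.25 with and without a CHR. ECT2, which rose in H1650, holds both.

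In untreated cells most of the genes were lower in H1650 than in A549. In this comparison, which uses the same untreated libraries as the contrasts above, 38 genes were lower in H1650, 9 were higher and 2 (KIF20A and SMC2) were not called, where 42.3% and 40.1% of all genes tested were called lower and higher. The median log2 difference was -0.53, against -0.04 over all genes tested. TOP2A (-1.65, SE 0.08), ECT2 (-1.64, SE 0.04) and HMMR (-1.52, SE 0.06) were lowest in H1650 against A549. ANLN (1.92, SE 0.04), MYBL2 (1.79, SE 0.04) and NDC80 (0.88, SE 0.07) were highest, and edgeR adjusted p for these 6 ran from 4.91e-36 to 1.10e-08. Per kilobase of exonic length, TOP2A had the highest level of the set in untreated A549 (121 CPM per kilobase) and MYBL2 in untreated H1650 (221). PRC1 had the lowest in both (3.32 and 1.86), but this is uncertain because it shares 57.6% of its exonic bases with AC068831.7. The untreated level of ECT2 in H1650 differed from that in A549 by -67.9%, and its SRSF2 libraries stayed below every A549 library.

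Other cell cycle genes were counted in lists that leave out the 49 and were also chosen with earlier results of these data known. Beside each count stand the shares of all genes tested, 16% lower and 16.5% higher in A549 and 31.3% lower and 31% higher in H1650. Of 59 other mitosis genes, 47 fell and 1 rose in A549 (median -0.26), and 41 fell and 11 rose in H1650 (median -0.30). HJURP, the chaperone that loads CENPA, fell in A549 from 460.2 ± 6.52 to 297 ± 8.68 CPM (SD, n = 3, log2 -0.63) and by 0.65 in H1650. INCENP, the scaffold of the chromosomal passenger complex, fell by 0.45 in A549 and by 1.06 in H1650. CDCA5 (sororin) fell by 0.44 and 0.14, and LMNB1, which encodes lamin B1, fell by 0.34 and 1.02. MIS12, a kinetochore gene, rose in H1650 from 17.8 ± 0.645 to 43.2 ± 2.90 CPM (SD, n = 3, log2 1.28) and was not called in A549 (0.11).

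Of 15 genes of the anaphase-promoting complex, 5 fell and 0 rose in A549, and 11 fell and 2 rose in H1650 (medians -0.06 and -0.20). Its activator FZR1 fell in both lines (-0.22 and -0.42), as did ANAPC2 (-0.23 and -0.30) and ANAPC5 (-0.16 and -0.36), while ANAPC1 was not called in A549 (-0.08) and fell in H1650 (-0.43). Of 10 cohesin genes, 4 rose and 2 fell in A549. In H1650 5 rose and 4 fell, and 4 of 10 lower is near the share of all genes tested. NIPBL, the cohesin loader, rose in both lines (0.34 and 0.25), WAPL, which releases cohesin, also rose in both (0.30 and 0.22), and SMC1A fell in both (-0.14 and -0.13). PDS5A and PDS5B fell in H1650 (-0.35 and -0.44) and were not called in A549 (0.06 and 0.12).

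Of 13 genes for DREAM, MuvB and NF-Y subunits, 5 fell and 0 rose in A549. In H1650 5 fell and 4 rose, which is near the shares of all genes tested. E2F4, a repressor subunit of DREAM, was called in opposite directions (-0.24 in A549 and 0.15 in H1650). TFDP1, RBBP4 and RBL2 fell in both lines (-0.20 and -0.21, -0.20 and -0.34, -0.15 and -0.76), and LIN52 rose in H1650 (1.09) with no call in A549 (-0.08).

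Of 8 CDK inhibitors and arrest genes, 4 rose, 1 fell and 3 were not called in A549 (median 0.13), and 8 rose in H1650 (median 0.89). CDKN1A, which encodes the CDK inhibitor p21, rose in A549 from 162 ± 1.77 to 209 ± 3.94 CPM (SD, n = 3, log2 0.37) and in H1650 from 354 ± 6.62 to 541 ± 13.9 CPM (SD, n = 3, log2 0.61). SFN, the 14-3-3 sigma protein that keeps cyclin B and CDK1 in the cytoplasm, rose by 0.15 and 1.52, and the antiproliferative gene BTG2 rose by 0.69 and 1.17. CDKN2C, which encodes the CDK4 and CDK6 inhibitor p18, was called lower in A549 (-0.61) and higher in H1650 (0.37).

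Of 19 G1/S and replication genes, all 19 fell in A549 (median -0.35), and 10 fell and 7 rose in H1650 (median -0.16). E2F1 fell by 0.75 in A549 and 0.16 in H1650, MCM5 by 0.46 and 0.18, and PCNA by 0.44 and 0.46. CCND1 and CDC6 fell in A549 (-0.13 and -0.18) and rose in H1650 (0.82 and 0.62).

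**Figure D5:**
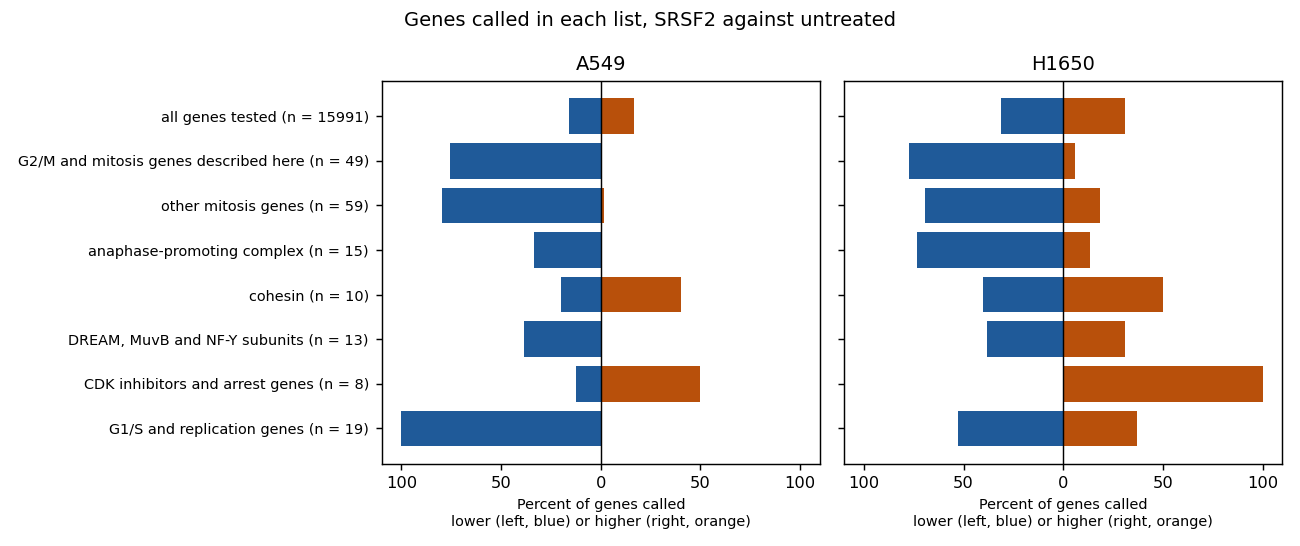
Percent of tested genes called lower (blue, left) and higher (orange, right) with SRSF2 in A549 (left panel) and H1650 (right panel), for all 15991 genes tested, the 49 G2/M and mitosis genes and 6 other lists. Of the 49 genes, 37 lie on the lower side in A549 and 38 in H1650, where 3 lie on the higher side, and the CDK inhibitors and arrest genes are all on the higher side in H1650.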

How the data were processed

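The authors deposited raw counts per gene. The submitters' processing notes name fastp 0.20.1 and STAR 2.7.7a, featureCounts 2.0.0, and the builds GRCh38 and hg38. Strandedness and annotation release were not given in the sources used here. The authors' FPKM values were left out, because they rescale the same counts. Groups of the 12 libraries follow the cell line and treatment labels.

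The test was edgeR's quasi-likelihood test (edgeR 4.0.16, R 4.3.3) with robust fitting, filterByExpr (15991 of 16599 genes), TMM scaling and a mean for each group, leaving 8 residual degrees of freedom. Adjustment was by Benjamini-Hochberg over all genes tested, and "called" means an adjusted p under 0.05. CPM are scaled by TMM factors, except those of the cell type markers, which use plain library totals. The standard error (SE) is approximate: it was derived from the log2 fold change and the F statistic.

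The members and lists were chosen with earlier results of these data known. Values in every library are given for the 6 largest non-overlapping changes per line, genes called against the majority, the 6 smallest adjusted p of the difference and the 3 most extreme genes each way between untreated lines, and up to 3 genes are named per other list and line. FOXM1 libraries in H1650 were added after their values were seen. LIN37, SPAG5, CENPN, ERCC6L, CDK2, CDKN2A and CDKN2B were not analysed here. Gene coordinates are from GENCODE 29. No replicates were duplicates. Alternatives were RLE, upper-quartile and no scaling, no filter, DESeq2 1.42.0, limma-voom (limma 3.58.1), glmTreat at a fold of 1.2, a fit of only the libraries compared, a replicate block and leaving out each library. The steps were tested on simulated data.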

Additional observations from a re-analysis of the deposited data

Results flagged for a closer look

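For 35 of 49 genes the response to SRSF2 differed between the lines by the edgeR test of the difference itself (A549 minus H1650, log2), with 47.6% of all genes tested called in either direction. The genes with a larger fall in H1650 were, for mitotic entry and kinases, CDK1 (0.52), CCNA2 (0.34), CCNB1 (0.17), CCNB2 (0.52), PLK1 (0.66), AURKA (0.16) and AURKB (0.33). Checkpoint genes in the same direction were BUB1B (0.53), BUB3 (0.49) and CDC20 (0.32). Kinesins were KIF11 (0.31), KIF14 (0.23), KIF20A (0.61) and KIF23 (0.18). Kinetochore and spindle genes were CENPA (0.36), CENPF (1.06), NDC80 (0.46), NUF2 (0.20), CKAP5 (0.59), NUSAP1 (0.89), HMMR (0.34) and DLGAP5 (0.38), and the others were ANLN (0.14), TOP2A (0.96), MKI67 (0.28) and NCAPD2 (0.64). Values below 0 were found for PLK4 (-0.20), MAD2L1 (-0.26), PTTG1 (-0.18), KIF2C (-0.25), CENPE (-0.20), TPX2 (-0.18), CKAP2 (-0.28), ECT2 (-0.39) and MYBL2 (-0.38). Calls of 25 of the 35 held in each alternative apart from glmTreat. PLK4, PTTG1, KIF2C, CENPE and TPX2 lost theirs with plain library totals, and NUF2 and ANLN with RLE scaling and with DESeq2. Leaving out 1 A549 library ended the call of PLK4, AURKA and KIF14 (untreated replicate 1), PTTG1 and CENPE (untreated replicate 3 or SRSF2 replicate 3), KIF2C and MKI67 (SRSF2 replicate 3), NUF2 (any untreated replicate or SRSF2 replicate 1) and ANLN (untreated replicate 1, SRSF2 replicate 1 or 2). Leaving out 1 H1650 library ended that of PLK4 and CENPE (untreated replicate 3 or SRSF2 replicate 1), AURKA and KIF14 (untreated replicate 2 or SRSF2 replicate 2), KIF2C (SRSF2 replicate 3), MKI67 (untreated replicate 2), NUF2 (untreated or SRSF2 replicates 1 or 2) and ANLN (untreated replicates 1 or 2, SRSF2 replicates 2 or 3). For AURKA and MKI67 the edgeR adjusted p was then 0.050 to 0.089.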

How the results depend on the processing

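Against a fold of 1.2 (glmTreat), genes called lower in A549 went from 37 to 2 (KIF11 and SPC25), against 343 of all 15991 genes tested. In H1650 genes called lower went from 38 to 27 and higher from 3 to 1 (ECT2). Of all genes tested, 2821 and 3059 were lower and higher there. The difference went from 26 above and 9 below 0 to 11 and 2, against 2095 and 2182 of all genes tested. Genes higher in untreated H1650 went from 9 to 5, against 5374 of all genes tested. With plain library totals 1 gene was called higher in H1650 and 4 below 0 in the difference, against 4128 and 3107 of all genes tested. With upper-quartile scaling the median between untreated lines was -0.62 (-0.13 over all genes tested). The causes were not tested. Apart from glmTreat, 31 of 37 calls held in A549, 37 of 41 in H1650, 25 of 35 in the difference and 45 of 47 between untreated lines (PLK1 and FOXM1 lost theirs). Without 1 library at a time, 32 to 38 genes were lower in A549 and 37 to 38 in H1650, and 2 to 4 were higher in H1650. In the difference 21 to 27 and 6 to 10 were called above and below 0. These fits tested 16162 to 16227 genes. Of these, 2018 to 2753 were lower in A549, and 4732 to 5057 lower and 4592 to 4948 higher in H1650. In the difference 3626 to 3886 of all genes tested were above 0 and 3509 to 3788 below. A fit of only the libraries compared called 41 genes lower in A549 (2916 of 15433 genes tested). In H1650 it called 38 lower and 3 higher (4670 and 4813 of 14506 genes tested). Signs turned for values near 0 that edgeR had not called. With RLE scaling A549 values of CKAP5 and ECT2 were -0.0152 and -0.0112, and DESeq2 gave -0.0152 and -0.0112. With upper-quartile scaling NDC80 in A549 was 0.00028 and the SMC2 difference 0.0103. With plain totals H1650 values of CDC25C, MAD2L1, KIF2C, TPX2 and MYBL2 were -0.00014, -0.0318, -0.0402, -0.0597 and -0.0117, and the SMC2 difference 0.0701. With no filter on low counts SMC2 was 0.0053 in the difference and 0.0273 between untreated lines. Leaving out single libraries, A549 values ran from -0.0801 to 0.0285 for CDC25C, -0.0582 to 0.0304 for NDC80, -0.0169 to 0.0215 for CKAP5 and -0.0222 to 0.0377 for ECT2, and H1650 values from -0.0150 to 0.0486 for TPX2 and -0.0150 to 0.0815 for KIF2C. The difference ran from -0.0571 to 0.0275 for SMC2 and from -0.0277 to 0.136 for TTK, and the SMC2 value between untreated lines from -0.0270 to 0.0269. The labels do not say whether libraries with the same replicate number belong together. Within a line, deviations of untreated and SRSF2 libraries from group means had correlations of -0.0197 to 0.0237 for the same number. For different numbers these were -0.0302 to 0.0339. With the replicate number as a block 37 genes were lower in A549 and 38 lower and 3 higher in H1650, with 26 and 9 in the difference. Of all 15991 genes tested, 2545 were then lower in A549, and 5009 lower and 4945 higher in H1650. In the difference 3873 were above 0 and 3767 below.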
